A study of Homo sapiens with 4 samples.

Results

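The comparison described here sets non-treated DDX21 KO cells against non-treated H1299 cells, across all genes with at least 50 reads in either of the 2 RNA libraries. H1299 is an established human non-small cell lung cancer line, and DDX21 KO is a derivative of it labelled as a knockout of the RNA helicase gene DDX21. Of 46427 genes in the table, 13600 (29.3%) met the read minimum and are called measured genes below. The series holds 4 libraries of total RNA depleted of ribosomal RNA, 1 library per group. The other 2 are the same 2 lines labelled miR-34a, with transfected RNA at 25 nmol/l and harvest at 48 h. They share no library with the non-treated pair, and serve here as a second look at the same 2 lines under a different treatment. The labels do not give the edited position, the guide, whether the knockout line is 1 clone, or whether the non-treated cells received transfection reagent.

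DDX21 is a DEAD-box helicase that resides mainly in the nucleolus and nucleoplasm. It is known to take part in ribosomal RNA transcription and processing, to contact small nucleolar RNAs, and to release the elongation kinase P-TEFb from the 7SK ribonucleoprotein at promoters. Genes of ribosome production, snoRNAs and 7SK are therefore described alongside the genes with the largest differences.

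The libraries held 36263145 reads for H1299 and 26868358 for DDX21 KO without treatment, and 32991380 and 32240536 with miR-34a. All values are ratios of 1 library to 1 library, so no test across replicates was possible and no p-value is given. Levels are in CPM, reads scaled to a common library size by TMM. Log2 ratios were formed from them after adding a prior count of 2. The 95% interval printed beside a ratio follows from how its reads divide between the libraries (exact, Clopper-Pearson) and covers counting error only. A gene was counted as higher or lower when its ratio passed 2-fold and the interval excluded no change. A gene at 0 reads in a library is given a lower bound on its fold, computed against 3 reads in that library. Genes known to be expressed in the line, VIM, AXL, KRT8, KRT18 and CDH2, were all measured. Summed levels of lung, leukocyte, fibroblast and erythroid marker lists were between 0 and 0.756 CPM in both libraries, and that of the endothelial list was 0.812 CPM in H1299 and 3.97 in DDX21 KO, mostly from KDR. The part of these lists in the results was not tested.

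DDX21 itself, at chr10:68956131-68985069 in GRCh38, gave 25766 reads in H1299 and 5536 in DDX21 KO, a log2 ratio of -1.81 (interval -1.85 to -1.77). The level in the knockout line was thus lower but far above 0, at 206 CPM against 722. Its main transcript, NM_004728, held 95.9% of the gene's reads in H1299 and 94.9% in the knockout line. DDX50, the neighbouring paralog that lies next to DDX21 on chromosome 10, had a log2 ratio of -0.33 (interval -0.42 to -0.25), and -0.26 with miR-34a.

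Most genes differed little between the lines. The median log2 ratio was -0.02 with an SD of 0.67 across measured genes, and 80.8% of them were within 1.5-fold. In DDX21 KO 516 genes were higher, which is 3.79% of those measured, and 374 were lower, which is 2.75%. In bulk RNA, fewer cells expressing a gene and less RNA per cell cannot be told apart. The corresponding shares between the same lines with miR-34a were 3.99% higher (544 genes) and 2.96% lower (403 genes) of 13621 measured. Calls were concentrated among genes of low read count: 19.1% of the 2689 genes with fewer than 200 reads were called, against 6.80% of the 4383 with at least 200 but fewer than 1000, and 1.19% of the 6528 with 1000 or more.

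Many of the differences recurred in the miR-34a libraries. Over the 13257 genes measured in both pairs, the ratios had a Pearson r of 0.75 and a Spearman rho of 0.66, across genes that are not independent replicates. Of the 516 higher genes, 487 were measured with miR-34a and 304 of these (62.4%) were higher there too, which is 55.9% of the genes higher with miR-34a. Of the 374 lower genes, 301 were measured and 155 (51.5%) were lower again, which is 38.5% of the genes lower with miR-34a. In total 459 genes were called alike in both pairs and 8 in opposite directions.

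**Figure D1:**
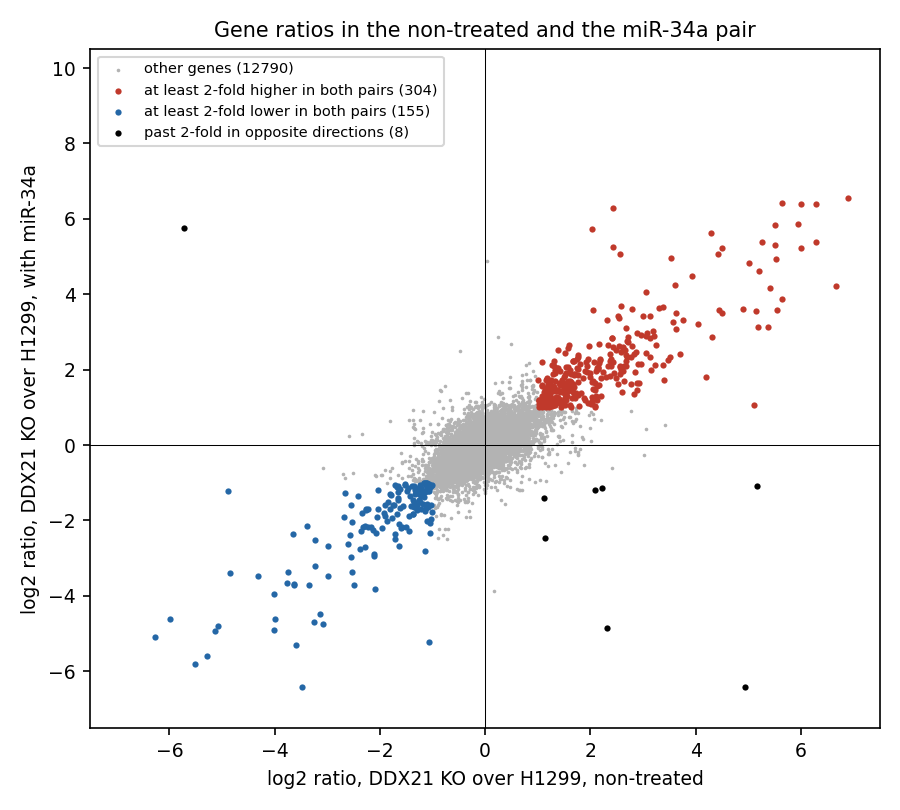
Log2 ratio of DDX21 KO over H1299 for each of the genes measured in both pairs, without treatment on the horizontal axis and with miR-34a on the vertical axis, 1 point per gene. The 304 genes higher in both pairs and the 155 lower in both lie along the diagonal, and 8 genes lie in the opposite corners.

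The genes furthest above H1299 were ones that the parental line hardly expressed. NRP1, a co-receptor for semaphorins and VEGF at chr10:33177491-33334905, gave 20 reads in H1299 and 764 in DDX21 KO, and 18 and 785 with miR-34a, with a log2 ratio of 5.51 (interval 5.03 to 6.38) without treatment. BACE2, an aspartyl protease at chr21:41168160-41282530, gave 0 and 204 reads, and 0 and 187 with miR-34a, so that it was at least 90.2-fold higher. Both knockout-line libraries stood above both H1299 libraries for these genes, which were named for their extreme ratios. The share of all measured genes separated by line in this way was not counted, here or below. NNMT, the nicotinamide N-methyltransferase, gave 0 and 132 reads, and 5 and 290 with miR-34a. BAMBI, a pseudoreceptor that dampens TGF-beta signalling, gave 0 and 109 reads, and 0 and 167 with miR-34a. For NNMT the parental line was near rather than at 0 in its miR-34a library, and for BAMBI it was at 0 in both.

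The same arrangement held for the rest of the 15 highest protein-coding genes, all of which were higher with miR-34a as well. KCNS3, a modulatory potassium channel subunit, went from 0 to 104 reads and ANO2, a calcium-activated chloride channel, from 0 to 78. GABRG1, a GABA-A receptor subunit, gave 3 and 197 reads, a log2 ratio of 5.64 with an interval of 4.88 to 8.73. MFAP5, a microfibril-associated matrix protein, gave 0 and 84 reads, and the forkhead factor FOXF1 gave 0 and 77. All 5 of these genes had at most 8 reads in the H1299 miR-34a library and at least 59 in the DDX21 KO miR-34a library. Others were LZTS1 (0 and 109 reads), NLRP4 (0 and 79), the small heat shock protein HSPB8 (0 and 72), the stress-induced NUPR1 (0 and 70) and NDN, a MAGE-family protein (6 and 229). Altogether 17 protein-coding genes that were higher in DDX21 KO had 0 reads in non-treated H1299. Of the 17, 9 also had 0 in H1299 with miR-34a. In the other direction, 14 protein-coding genes that were lower had 0 reads in non-treated DDX21 KO. Of the 14, 6 also had 0 in DDX21 KO with miR-34a. Read-through loci were left out of both counts. Such genes met the read minimum only through the library of the other line, so absence from H1299 is not read as a trait of the higher genes.

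**Figure D2:**
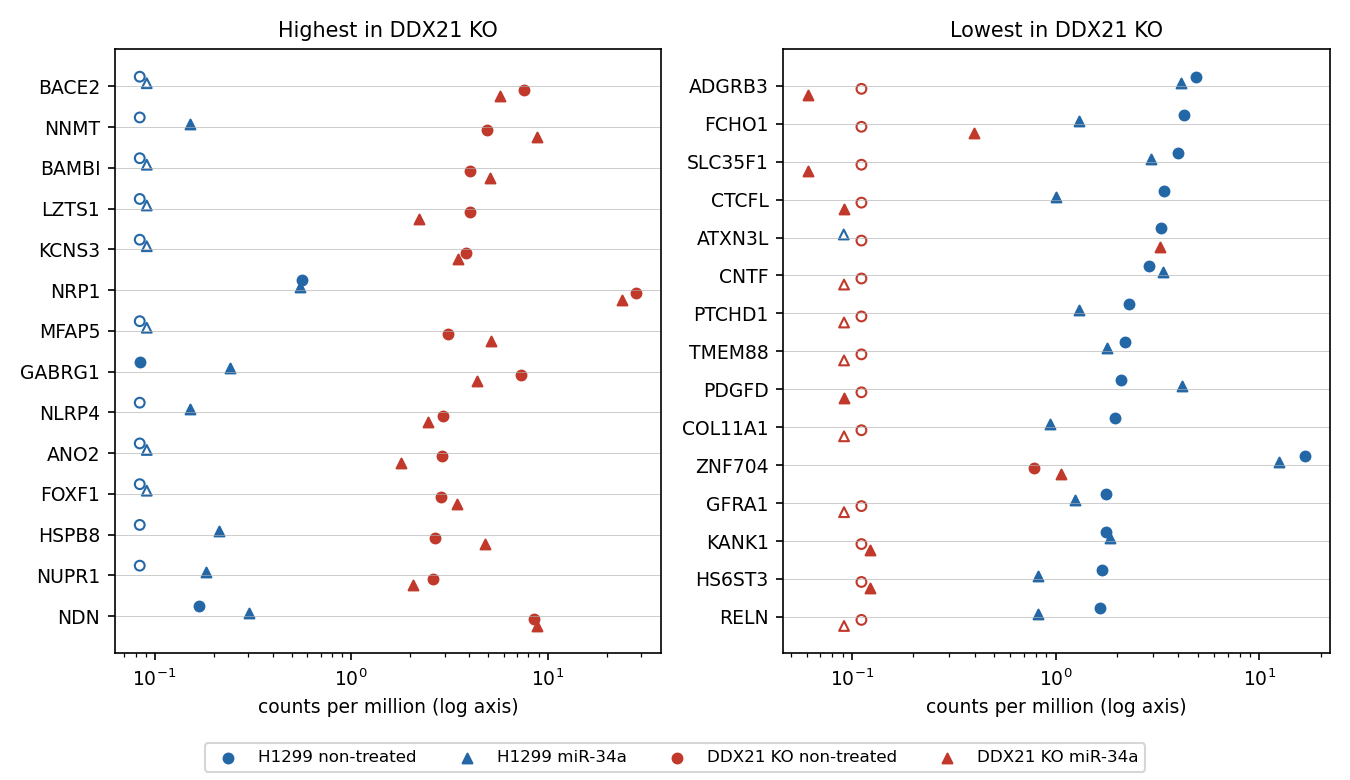
CPM on a log axis in each of the 4 libraries for the named protein-coding genes furthest above H1299 and the 15 furthest below it in the non-treated pair. Blue marks H1299 and red DDX21 KO, circles the non-treated and triangles the miR-34a library, and an open symbol stands at the value of 3 reads for a library with 0. In the left panel the knockout line lies to the right of H1299 for every gene shown, and in the right panel ATXN3L is the gene whose miR-34a libraries lie the other way round.

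The genes furthest below H1299 had few or no reads in the knockout line. ADGRB3, an adhesion G protein-coupled receptor at chr6:68635282-69389506, gave 175 reads in H1299 and 0 in DDX21 KO, and 135 and 2 with miR-34a, so that it was at least 44.0-fold lower. SLC35F1, a member of a solute carrier family, gave 142 and 0 reads, and 97 and 2 with miR-34a. ZNF704, a zinc finger gene, gave 597 and 21 reads, and 408 and 35 with miR-34a, with a log2 ratio of -4.31 (interval -5.13 to -3.80). In all 3 genes, again named for their extreme ratios, both H1299 libraries stood above both knockout-line libraries. PDGFD, a ligand of PDGF receptors, gave 75 and 0 reads, and 137 and 3 with miR-34a. TMEM88, a membrane protein reported to restrain Wnt signalling, gave 78 and 0 reads, and 59 and 0 with miR-34a. KANK1, an adaptor of cell adhesions, gave 63 and 0 reads, and 61 and 4 with miR-34a. These genes, named in the same way, were also separated by line in both pairs.

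CNTF, a neurotrophic cytokine, gave 102 and 0 reads, but 38.7% of its exonic length is shared with the read-through locus ZFP91-CNTF, which went the other way, from 0 to 133 reads. The same exchange was present with miR-34a, at 111 and 0 reads for CNTF and 0 and 165 for ZFP91-CNTF, so reads of these loci cannot be told apart. The other genes of the 15 lowest, apart from ATXN3L, did not reach 50 reads in either miR-34a library and so were not compared there. FCHO1 gave 152 and 0 reads, and 43 and 13 with miR-34a. CTCFL, the germline paralog of CTCF, gave 122 and 0 reads, and 33 and 3 with miR-34a. PTCHD1, COL11A1, GFRA1, HS6ST3 and RELN had between 59 and 82 reads in H1299 and 0 in DDX21 KO, and between 27 and 43 against 0 to 4 with miR-34a. ATXN3L, an intronless copy of ATXN3, gave 118 and 0 reads without treatment and 0 and 107 with miR-34a.

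Among genes with at least 1000 reads, where counting error is smallest, the leading difference was CCND2. This gene encodes cyclin D2, a G1 cyclin, at chr12:4273762-4305353, and it gave 465 reads in H1299 and 3682 in DDX21 KO, and 363 and 4640 with miR-34a. Its log2 ratio was 3.39 (interval 3.25 to 3.53), whereas CCND1, the cyclin D1 gene, was at 365 and 357 CPM. CCNE2, the cyclin E2 gene, had a log2 ratio of -1.25 without treatment and -1.46 with miR-34a. Of 24 measured G1 cyclins, kinases and inhibitors these were the 2 called, beside 3.79% higher and 2.75% lower over all measured genes.

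Of the genes with at least 1000 reads, 40 were higher and 38 lower. Thrombospondin 1, encoded by THBS1, was at 103 CPM in H1299 and 296 in DDX21 KO, and TGFBI, a matrix protein induced by TGF-beta, was at 30.1 and 128. TGFA, a ligand of the EGF receptor, was at 25.0 and 82.0 CPM. The heparan sulphate proteoglycan gene GPC1 had a log2 ratio of 2.34 and the sushi-repeat gene SRPX one of 2.64. AMIGO2, an adhesion molecule, had a log2 ratio of 1.56, LIFR, the receptor of leukemia inhibitory factor, one of 1.51, and the organic anion transporter gene SLCO1B3 one of 2.11. These abundant genes, CCND2 included, were all higher with miR-34a too, at log2 ratios of 1.05 for TGFBI to 3.67 for CCND2.

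After DDX21, the abundant genes furthest below H1299 were the purinergic receptor gene P2RY1, ZNF483, the ERK phosphatase gene DUSP5, the cell adhesion gene NTM and the phosphatase gene PPM1E. P2RY1 was at 49.9 CPM in H1299 and 14.3 in DDX21 KO, and at 32.2 and 13.1 with miR-34a. ZNF483 had a log2 ratio of -1.72, NTM and PPM1E had ratios of -1.65, and the N-glycan branching enzyme gene MGAT5 had -1.42. FASN, the fatty acid synthase gene at chr17:82078338-82098303, was at 246 and 90.1 CPM without treatment, a log2 ratio of -1.45 (interval -1.52 to -1.39). With miR-34a it was at 129 and 83.9, a log2 ratio of -0.62 that did not pass 2-fold. SMURF2, a ubiquitin ligase that acts on TGF-beta receptors and SMADs, was at 366 and 157 CPM, and at 562 and 222 with miR-34a. FASN, PPM1E and SMURF2 lie on the long arm of chromosome 17, where most genes had ratios below 0, as described below.

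The mesenchymal, epithelial and cadherin lists had the largest shares of higher genes among the 61 lists. Over all measured genes 3.79% were higher and 2.75% lower, and each list count below is to be read beside these shares. The lists were not matched for read number, on which the share called depends. Of 17 measured mesenchymal genes 6 were higher and 0 lower, with a median log2 ratio of 0.78, and 5 of the 6 recurred with miR-34a. SNAI2, a transcriptional repressor of epithelial genes, gave 4 and 60 reads (log2 ratio 3.70), and MMP2, the gelatinase A gene, gave 19 and 197 (3.63). TNC, SPARC and TAGLN had log2 ratios of 1.41, 1.36 and 1.12. The list did not move as 1 block: VIM was at -0.25, CDH2 at -0.67 and ZEB2 at -0.76, and with genes of at least 200 reads alone the median was 0.20. Of 15 measured epithelial genes 5 were higher, namely KRT7, KRT8, KRT18, KRT80 and the desmoplakin gene DSP, and the tight junction gene OCLN was lower. KRT8 was at 181 and 402 CPM and KRT18 at 566 and 1191. With miR-34a, DSP and KRT80 were higher again, whereas KRT8 and KRT18 had log2 ratios of 0.61 and 0.71 that did not pass 2-fold.

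**Figure D3:**
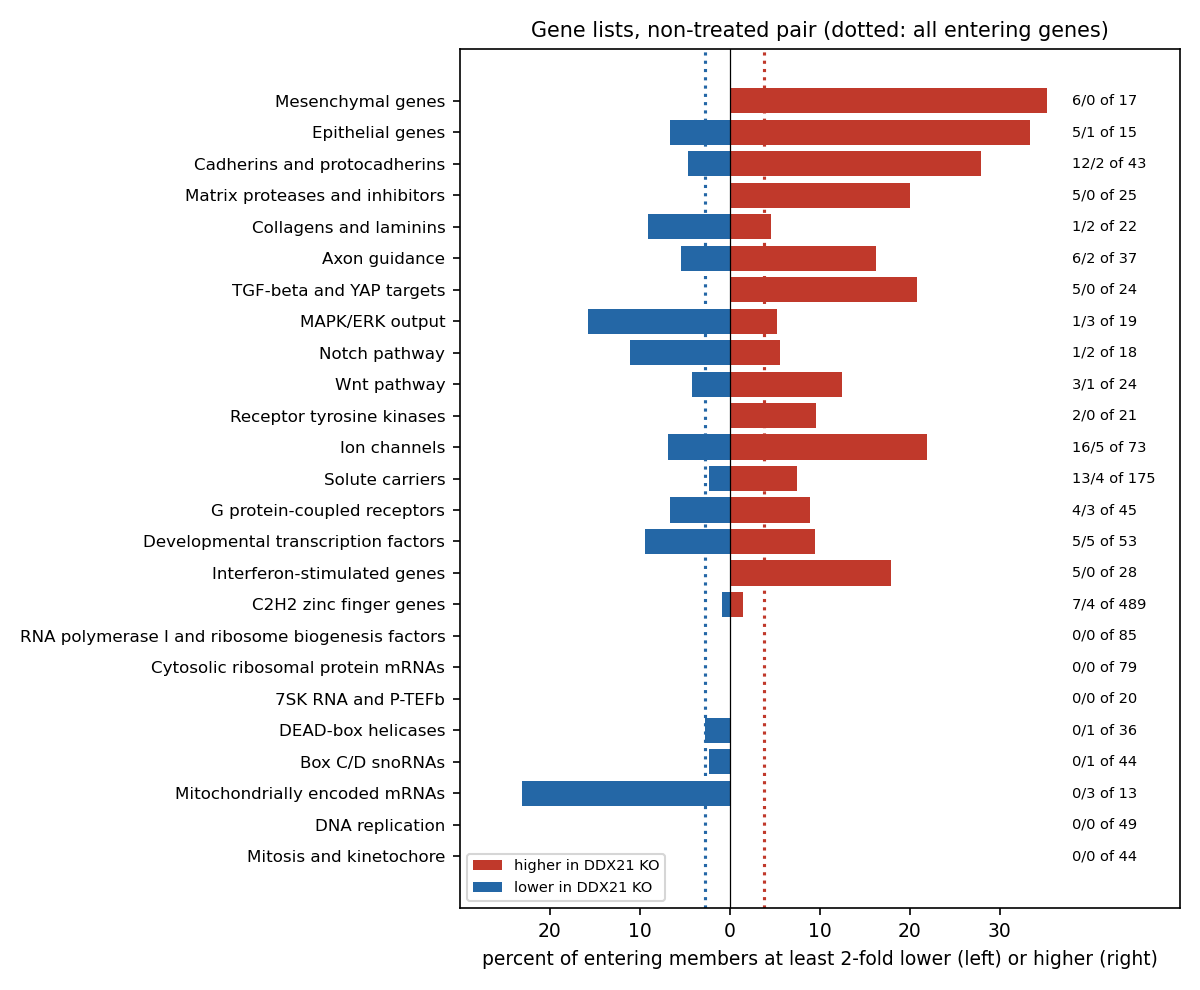
Percent of the measured members of each gene list that were lower (blue, left) or higher (red, right) in DDX21 KO without treatment, with the numbers higher and lower of those measured at the right. Dotted lines mark the shares over all measured genes, 2.75% lower and 3.79% higher, and mesenchymal genes have the longest red bar at 6 of 17.

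Matrix proteases and their inhibitors had 5 of 25 members higher and 0 lower. Besides MMP2 they included ADAMTS15 (log2 ratio 2.70), MMP24 (2.38) and MMP1 (1.77), of which MMP1 was not higher with miR-34a, at -0.27. Collagens and laminins were split, with COL16A1 higher at 1.42, and COL11A1 and LAMA5 lower, among 22 measured. SERPINH1, the collagen chaperone, was higher at 1.17. In the list of TGF-beta and YAP targets 5 of 24 were higher and 0 lower, with a median of 0.35, and 4 of the 5 recurred with miR-34a. Among them were TGFBI, THBS1, ANKRD1, a YAP target at 37.1 and 99.1 CPM, and LTBP2. The entry filter bears on such counts, since a gene with few reads in H1299 was measured only where the knockout line had more.

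The clustered protocadherins of chromosome 5 differed as a neighbourhood. These genes encode homophilic adhesion proteins, and each is transcribed from its own promoter, in 3 neighbouring groups named alpha, beta and gamma. Of 43 measured cadherins and protocadherins 12 were higher and 2 lower. The 12 were PCDHAC1, PCDHAC2 and 10 beta genes, and 8 of the beta genes formed a run with no other measured gene between them, at chr5:141150022-141249365 in GRCh38, from PCDHB6 to PCDHB15. PCDHAC1 and PCDHAC2 share exons with the alpha genes, so their counts are uncertain. With miR-34a, PCDHAC2 (0.58) and PCDHB6 (0.64) did not pass 2-fold. PCDHB9 gave 16 and 81 reads, and 14 and 86 with miR-34a (log2 ratio 2.58, interval 1.96 to 3.62). PCDHB10 gave 32 and 152 reads, and 36 and 161 with miR-34a (2.57, interval 2.10 to 3.25). PCDHB14 gave 127 and 413 reads, and 121 and 380 with miR-34a (2.09, interval 1.82 to 2.41). In these 3 genes, picked with their ratios known, the lines did not overlap across the 4 libraries. The share of all measured genes without such overlap was not counted. PCDHB5, with 526 and 792 reads, was just short of 2-fold at 0.99, and was called higher with miR-34a at 1.20. PCDHB1, PCDHB4, PCDHB7, PCDHB8 and PCDHB16 did not reach 50 reads without treatment. With miR-34a PCDHB4 was higher, at 14 and 70 reads. The gamma genes lay between -0.93 for PCDHGB6 and 0.82 for PCDHGA9 without treatment. With miR-34a the lowest measured was PCDHGC3 at -0.19, and PCDHGA4 (1.05), PCDHGA5 (1.08) and PCDHGB4, with 49 and 142 reads, were higher. They share their last exons with one another, so their counts are uncertain. Outside the clusters PCDH7 gave 369 and 19 reads, and 240 and 17 with miR-34a (log2 ratio -3.76), and PCDH9 gave 364 and 55 (-2.28).

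**Figure D4:**
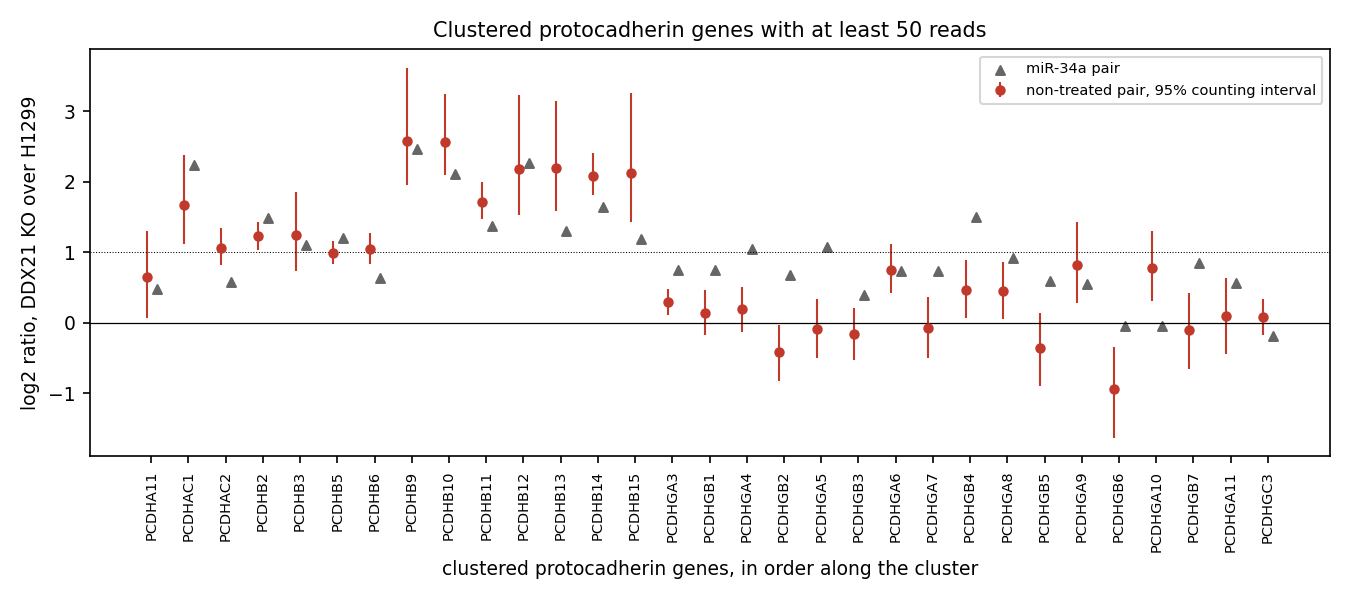
Log2 ratio of DDX21 KO over H1299 for each clustered protocadherin gene with at least 50 reads, in order along the cluster. Red circles with bars are the non-treated pair with its 95% counting interval, and grey triangles the miR-34a pair. The beta genes from PCDHB9 to PCDHB15 lie between 1.72 and 2.58, and the gamma genes between -0.93 and 0.82, without treatment.

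The promoters of these neighbouring genes were compared with one another. Promoters of clustered protocadherins are known to carry a conserved sequence element with a CGCT core that binds CTCF. RefSeq promoters (GRCh38.p14, 250 bases before to 50 after the start) were at hand for 16 PCDHAC and PCDHB genes, and the 10-base string found in most of them was GGTGGCGCTG. It was in 12 of the 16 on the plus strand. On either strand it was in 81 of 27305 promoters of all genes (0.297%), these 12 included, and 69 belong to genes other than protocadherins. The string was chosen as the most frequent in the 16, so its larger share there was fixed by the choice and is no evidence of enrichment. The capitals below mark that string, with flanking bases in lower case, for 3 genes that were higher, for PCDHB5, just short of 2-fold, and for PCDHB7, below the read minimum, all on the plus strand of chromosome 5.
PCDHB9, chr5:141187075-141187104: gaagccacaaGGTGGCGCTGcagactgaag
PCDHB10, chr5:141192300-141192329: gaggccacacGGTGGCGCTGcaggctaaag
PCDHB15, chr5:141245315-141245344: gacaacgcatGGTGGCGCTGcaggctaagg
PCDHB5, chr5:141135180-141135209: taggacgcctGGTGGCGCTGcaggctaaga
PCDHB7, chr5:141172567-141172596: caaaacgcaaGGTGGCGCTGctggctaaaa

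The string lay 2 to 84 bases before the start in the 12 promoters. It was present in promoters of genes that were higher, such as PCDHB9, and of PCDHB5, which was not called. The letters were not in the windows of PCDHAC1, PCDHAC2 and PCDHB14, which were higher. They were also not in that of PCDHB1, which had 0 reads in both non-treated libraries. The search was made after the values were seen and describes sequence alone.

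Ion channels were the membrane family with the most calls. Of 73 measured, 16 were higher and 5 lower, and 16 of these 21 were called alike with miR-34a. Beside KCNS3, GABRG1 and ANO2, the 2-pore potassium channel gene KCNK5 gave 0 and 64 reads, and 0 and 81 with miR-34a. The potassium channel subunit gene KCNV1 gave 91 and 5 reads, a log2 ratio of -3.39, and the NMDA receptor subunit gene GRIN2D gave 149 and 18, a ratio of -2.53. Of 175 measured solute carriers 13 were higher and 4 lower, beside 3.79% higher and 2.75% lower over all measured genes. The sodium/proton exchanger gene SLC9A2 gave 8 and 168 reads, and 16 and 212 with miR-34a (log2 ratio 4.45). SLC37A1 gave 0 and 50 reads, and SLC46A3, a lysosomal transporter, gave 175 and 35 (-1.86). G protein-coupled receptors had 4 higher and 3 lower of 45, with the adrenergic receptor gene ADRA2C at 2.14.

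Axon guidance genes had 6 of 37 higher and 2 lower. After NRP1, the netrin receptor gene UNC5B gave 4 and 91 reads, and 0 and 96 with miR-34a. The semaphorin receptor gene PLXND1 (log2 ratio 1.85) and the ligand gene SLIT3 (1.69) were also higher in both pairs, and the SLIT receptor gene ROBO2 was lower in both, with 194 and 27 reads without treatment. Developmental transcription factors had 5 higher and 5 lower of 53. Beside FOXF1, TBX3 (1.63) and MSX1 (1.24) were higher, and ISL1 (-2.60), SOX4 (-2.23) and POU3F2 (-1.60) were among the lower ones. SOX4 was lower with miR-34a too, and ISL1 and POU3F2 did not reach 50 reads. Neurofilament genes went in opposite directions: NEFL gave 4 and 77 reads and NEFH 376 and 16, and both differences recurred.

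In growth signalling, 3 of 19 ERK output genes were lower and 1 was higher. EGR1, an immediate early factor, gave 79 and 8 reads (log2 ratio -2.66). DUSP5 was at 114 and 36.2 CPM and DUSP6 at 65.1 and 26.3, both encoding phosphatases that act on ERK as feedback. EGR1, DUSP5 and DUSP6 were lower with miR-34a as well, whereas IER3, the higher gene, did not pass there. DUSP6 lies in a genome window of low ratios and was at -0.89, short of 2-fold, when centred on it. Other members were not called, among them FOSL1 at -0.80 and the Sprouty genes SPRY2 and SPRY4 at -0.70 and -0.69, and the list median was -0.21. In the Notch pathway the ligand gene JAG2 gave 167 and 20 reads (-2.56) and the coactivator gene MAML3 had a log2 ratio of -1.16. Both were also lower with miR-34a, whereas DLL1 was higher at 2.20 without treatment and was not called higher with miR-34a. Wnt pathway genes had 3 higher, including the receptor gene FZD7 at 1.57, and WNT2B lower at -1.13, of 24. KDR, the VEGF receptor gene, gave 22 and 101 reads among receptor tyrosine kinases.

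Interferon-stimulated genes had 5 of 28 higher and 0 lower without treatment, but 1 of the 5 recurred with miR-34a. That gene, SAMD9L, gave 78 and 412 reads, and 195 and 602 with miR-34a. IFIT1, IFIT2 and IFIT3, neighbours on chromosome 10, had log2 ratios of 1.31, 1.37 and 1.04 without treatment and 0.80, 0.02 and -0.12 with miR-34a. IFI44 gave 15 and 59 reads without treatment and 120 and 53 with miR-34a. The list median was 0.18 in the first pair and -0.13 in the second. Among stress lists, heat shock proteins had 2 of 18 higher, HSPB8 and SERPINH1, both also higher with miR-34a. ATF4 targets had NUPR1 higher and CTH lower (-1.06) of 24, and 0 of 21 NRF2 targets and 0 of 17 unfolded protein response genes were called, against 3.79% higher and 2.75% lower over all measured genes.

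Genes of the machinery with which DDX21 is associated had few calls. Over all measured genes 3.79% were higher and 2.75% lower, but of genes with 1000 or more reads only 1.19% were called. The lists below were not matched for read number, so their low counts are not read as a trait of these genes. Of 85 RNA polymerase I and ribosome biogenesis factors 0 were called, with a median log2 ratio of -0.12 and a range of -0.90 to 0.58. All 79 cytosolic ribosomal protein mRNAs lay between -0.72 and 0.33, again with 0 called and a median of -0.12. For 7SK RNA and P-TEFb 0 of 20 were called: RN7SK was at 17031 and 18128 CPM, a log2 ratio of 0.09. DDX21 was the only one of 36 measured DEAD-box helicases that was called. Box C/D snoRNAs had 1 lower of 44 (SNORD14C, median of the list -0.32) and box H/ACA snoRNAs 1 lower of 35 (SNORA79B, median -0.31), and many snoRNAs lie in introns of host genes. These medians were -0.13 and -0.12 with miR-34a.

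Reads assigned to the 45S ribosomal RNA entries were fewer in the knockout line without treatment. Summed over 3 near-identical copies, they were at 6622 CPM in H1299 and 3431 in DDX21 KO, a log2 ratio of -0.95 (interval -0.96 to -0.94). With miR-34a the levels were 4288 and 4582, a log2 ratio of 0.10. The non-treated H1299 library thus stood highest and the non-treated DDX21 KO library lowest, and the lines overlapped. Reads on the 28S copies, far fewer, were lower in DDX21 KO in both pairs: 3306 and 343 without treatment, a log2 ratio of -2.86, and 713 and 182 with miR-34a, a ratio of -1.95. Most of them lay on the copy RNA28SN3, with ratios of -3.23 and -3.20. Of 8 measured ribosomal RNA genes 5 were lower without treatment, beside 2.75% over all measured genes. Near-identical copies are among these genes, so they are not separate observations. The 18S copies held 27 and 3 reads without treatment. The 45S entries overlap the mature ribosomal RNAs in sequence, so reads of precursor and of mature RNA cannot be told apart. Ribosomal RNA was removed before sequencing, so these reads are what the depletion left, and the part of depletion in the difference was not tested. Ribosomal RNA genes held 0.663% of reads in non-treated H1299, 0.346% in non-treated DDX21 KO, and 0.431% and 0.467% with miR-34a.

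Mitochondrially encoded mRNAs were below H1299 for all 13 genes without treatment, with log2 ratios from -0.06 for ND6 to -1.18 for ND3 and a median of -0.69. ND3, CYTB and ATP8 passed 2-fold. With miR-34a the median was -0.29 and 0 of 12 measured passed. Nuclear genes of oxidative phosphorylation had a median of 0.07, with ATP5MC1, on chromosome 17, as the gene of 79 that was lower. Cell cycle lists had 0 called of 49 DNA replication genes and 0 of 44 mitosis genes, with medians of -0.15 and -0.05, against 0.28 and 0.30 with miR-34a. Replication-dependent histones, most of whose mRNAs lack poly(A) tails, had 0 of 56 called and a median of -0.21, against 0.64 with 5 higher with miR-34a.

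Differences also followed position in the genome. Across 262 windows of 10 Mb with at least 15 measured protein-coding genes, the median log2 ratio ranged from -0.71 on chromosome 13 (70 to 80 Mb) to 0.47 on chromosome 2 (230 to 240 Mb). The window medians of the non-treated and miR-34a pairs had a Pearson r of 0.95 and a Spearman rho of 0.92, as a description over windows that hold the same genes. Of 32 windows at -0.3 or below, 30 were so with miR-34a as well. The other lowest windows were on chromosome 13 (100 to 110 and 110 to 120 Mb) and chromosome 17 (50 to 60 and 60 to 70 Mb), between -0.68 and -0.59. The other highest were on chromosome 2 (170 to 180 and 200 to 210 Mb), X (50 to 60 Mb) and chromosome 10 (50 to 60 Mb), between 0.40 and 0.46.

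**Figure D5:**
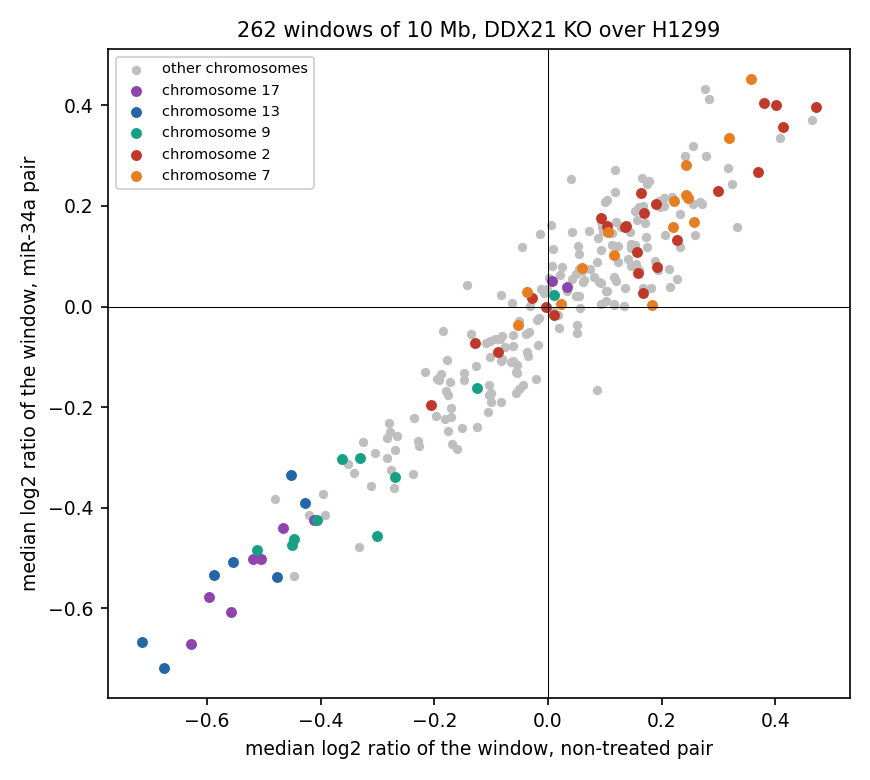
Median log2 ratio of DDX21 KO over H1299 in each of 262 windows of 10 Mb, without treatment on the horizontal axis and with miR-34a on the vertical axis, 1 point per window. Windows of chromosome 13 and most of chromosomes 17 and 9 lie at the lower left, and many windows of chromosomes 2 and 7 at the upper right.

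The shifts covered long stretches of chromosomes. On chromosome 17, the 193 genes before 20 Mb had a median log2 ratio of 0.02, and the 478 genes beyond it had -0.52 (quartiles -0.74 and -0.31), with 433 of the 478 (90.6%) below 0. On chromosome 13, 180 of 197 genes were below 0, with a median of -0.51. Chromosome 9 had a median of -0.14 over 130 genes before 70 Mb and -0.44 over 343 genes beyond it. Chromosome 12 had medians of 0.07 before 80 Mb and -0.35 beyond it, and chromosome 1 had -0.25 up to 120 Mb and 0.10 from 140 Mb on. Stretches above 0 were chromosome 2 from 170 to 250 Mb (median 0.35), chromosome 7 up to 100 Mb (0.26) and X from 40 to 120 Mb (0.27). The borders were read off the windows, and with miR-34a the medians were -0.51 for the long stretch of chromosome 17, -0.49 for chromosome 13 and 0.33 for that of chromosome 2. DNA was not measured here, so a change in gene dose and a change in transcription per gene copy cannot be told apart.

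Position bears on the counts of genes. The long stretch of chromosome 17 held 37 lower and 5 higher genes and chromosome 13 held 19 and 3, which is 7.74% and 9.64% lower. When each ratio was centred on the median of its window, 493 genes were higher and 297 lower, of which 438 and 261 were the same genes as before. FASN then had a value of -0.89, SMURF2 -0.62, DUSP6 -0.89, ATP5MC1 -0.54 and the polycomb gene EZH1 -0.51, none past 2-fold, whereas DUSP5 (-1.59), CCND2 (3.29) and NRP1 (5.39) changed little. The 4 lowest members of the ribosome biogenesis list include FTSJ3 and UTP18, at -0.72 and -0.71, both on chromosome 17.

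Runs of at least 3 adjacent measured genes that were called the same way were found at 7 places. Besides the protocadherins, CRACR2A, PARP11 and CCND2 were neighbours at chr12:3613366-4305353 and were higher in both pairs. PDE3A, SLCO1B3, SLCO1B7 and SLCO1B1, at chr12:20368537-21239796, were also higher in both, with log2 ratios of 2.69, 2.11, 3.24 and 1.47, though the transporter genes are similar in sequence and their reads may be split. The keratin genes KRT80, KRT7, KRT8 and KRT18 formed another run on chromosome 12 and the IFIT genes one on chromosome 10. The run that was lower held LRRC45, RAC3 and DCXR on chromosome 17, at -1.19, -1.38 and -1.35, of which RAC3 recurred with miR-34a.

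Among long non-coding RNAs, lower calls outnumbered higher ones. Of 993 measured 47 were higher (4.73%) and 73 lower (7.35%), against 453 and 269 of 11813 protein-coding genes (3.83% and 2.28%). The classes were not matched for read number, on which the share called depends. The read minimum was in unscaled reads, of which the H1299 library held more, so low loci were measured more readily when higher in H1299. The part of this in the counts was not tested. LINC01783 gave 87 and 0 reads, and 94 and 0 with miR-34a. LINC01152 gave 0 and 59 reads, and 4 and 69 with miR-34a, and LOC107986820 gave 119 and 868, and 294 and 1866. These loci differed between the lines in both pairs, but others near the top did not recur. The read-through locus DNAAF4-CCPG1 gave 0 and 190 reads without treatment and 0 in both miR-34a libraries, as did the pseudogene TWF1P2 with 0 and 59. PP7080 gave 506 and 23 reads without treatment and 0 in both miR-34a libraries, and all of its exonic length overlaps SLC9A3, which gave 133 and 409 reads. Of 90 measured read-through loci 35 (38.9%) were called, and of the 26 of these measured with miR-34a 8 were called alike.

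At the transcript level far more entries passed the same rule, 8015 of 41156 higher (19.5%) and 10140 lower (24.6%). Of the called transcripts 93.9% belonged to genes that were not called, and 3066 genes had a transcript that was higher and another that was lower. With miR-34a 33.6% of the higher and 33.4% of the lower transcripts measured there were called alike, and 1392 and 1725 were called the opposite way. Shifts of similar number appeared between libraries of 1 line. Of 9883 genes with at least 200 reads in all 4 libraries, 1479 had a transcript whose share of the gene's reads differed by 30 points or more between the lines without treatment. The number was 1388 between the 2 H1299 libraries and 1503 between the 2 DDX21 KO libraries.

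The largest shifts of share were therefore often not repeated. TBC1D24 had NM_020705 with all of its reads in H1299 and 0 in DDX21 KO, but with 99.8% and 76.6% with miR-34a. RAD54L2 had NM_015106 at 99.1% in H1299 and 0 in DDX21 KO, and 0 in both miR-34a libraries. RERG, FUT9 and GAB2, also among the 8 largest, each had a transcript whose share moved by a similar amount between the libraries of 1 line. In DOP1B the shift recurred in part: NM_001320714 held 99.5% of reads in H1299 and 0 in DDX21 KO, and 94.8% and 48.0% with miR-34a. In MYO18A, an unconventional myosin gene, the shift recurred. Its transcript NM_203318 held 99.5% and 99.9% of reads in the H1299 libraries and 0 in both knockout-line libraries, where NM_078471 had 205 of 293 and 243 of 374 reads. In KLF12, a zinc finger repressor gene, XM_017020385 held 1.31% and 1.02% in H1299, and all reads and 97.6% in DDX21 KO, but 2 other transcripts of it also exchanged shares between the H1299 libraries.

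In 84 of the 9883 genes a transcript moved by at least 30 points between the lines in both pairs and by 10 or less within each line. The reverse pattern, a move with treatment in both lines but not between them, was not counted. The intermediate filament gene VIM was one of them, with NM_003380 at 91.1% and 90.7% in the H1299 libraries and 0 in both DDX21 KO libraries, where XM_006717500 held all reads. ASAP2, encoding an Arf GTPase-activating protein, had NM_003887 at 61.3% and 67.4% in H1299 and 0 in the knockout line, and OAT, the ornithine aminotransferase gene, had NM_000274 at 92.5% and 90.7% against 0.861% and 3.28%. These genes were ranked after their values were seen.

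The authors' deposited table of this comparison, for which no source used here names a test, lists 263 genes higher and 130 lower at 2-fold and an unadjusted p below 0.05. Of these 271 were measured genes here, and all 271 were called in the same direction. The authors' deposited table compares the same 2 libraries at the same 2-fold, so this shared direction was fixed in advance and is no independent support. Its p-values rest on 1 library per side. At an adjusted p below 0.05 the authors' deposited table holds 9 higher genes, GABRG1, NRP1, NDN, PDGFA, PREX1, SLC9A2, STK32A, SUSD4 and FAM20C, and the lower gene ZNF704. In the authors' deposited table NRP1 has a fold of 50.2 with an adjusted p of 0.000578, and ZNF704 a fold of -21.4 with an adjusted p of 0.0216. That table holds 0 genes with no read in 1 of the 2 libraries, which leaves out BACE2 and ADGRB3.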

How the data were processed

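RNA of 4 libraries (1 per group) was sequenced after ribosomal RNA removal with a stranded total RNA kit, per the labels' protocols. GRCh38 was the build, with TopHat2 2.0.9 and Bowtie2 2.0.6 listed as tools, per the submitters' processing notes; no source used here names the counting tool or its strand setting. The deposited tables hold estimated counts per gene and transcript, whole in these files, and FPKM, per the file headers. The authors' deposited comparison table holds signed fold changes and p-values. Library sizes were scaled by TMM over all genes (edgeR 4.0.16, R 4.3.3), and ratios and intervals were computed in Python 3.11.15 with SciPy 1.17.1. The calling rule was checked on simulated counts that held counting error only, so the check says nothing about variation between cultures or lines. With 1 library per group no count model was fitted. Each count is of reads, not molecules, and low genes have wide intervals: 3 reads equal 0.0840 and 0.111 CPM in the non-treated libraries.

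Genes were named by rule: DDX21 and DDX50, the 15 protein-coding genes furthest on each side by the interval bound nearest to 0 (read-through loci and replication-dependent histones left out), the 10 on each side with at least 1000 reads, the 6 loci on each side that are not protein-coding, up to 4 members on each side of each of 61 gene lists, the 8 genes with the largest transcript share shift, and the 5 highest and 5 lowest windows. Other genes named were chosen after their values were seen. The members and lists were chosen with earlier results of these data known, and symbols that matched a family pattern without belonging to it were removed after the values were seen. Alternatives were other read minimums, scalings, prior counts, folds and window sizes, FPKM, and leaving out locus classes; centring on windows and leaving out read-through loci alone were added after seeing the data. A few genes that the rule names are not reported here.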

Additional observations from a re-analysis of the deposited data

Results flagged for a closer look

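The 8 genes called in opposite directions in the non-treated and miR-34a pairs are listed for a closer look, because each library of 1 pair lies the other way round in the second pair. The difference between pairs was not tested, since each pair holds 1 library per line. IFI44 had a log2 ratio of 2.22 without treatment and -1.14 with miR-34a, CARD17 had 1.12 and -1.39, and LOC101927365 had 2.08 and -1.18. In these 3 the H1299 miR-34a library had more reads than non-treated H1299, at 120 against 15, 106 against 73 and 112 against 38. The retrocopy ATXN3L had -5.72 and 5.77, and the ribosomal protein pseudogene RPS18P5 had 1.14 and -2.46. The other three are read-through loci, MICOS10-NBL1 at 4.94 and -6.41, RPL36A-HNRNPH2 at 5.17 and -1.09, and SERF2-C15ORF63 at 2.31 and -4.86. Reads of these loci, and of the 2 copies, can be shared with other genes.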

How the results depend on the processing

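The 516 higher and 374 lower genes became 1191 and 885 with a minimum of 10 reads, 216 and 160 with a minimum of 200, 1246 and 1341 at 1.5-fold, and 176 and 88 at 4-fold. Transcripts, 8015 higher and 10140 lower, became 13908 and 16978 at 10 reads and 3111 and 4241 at 200. The 459 genes called alike became 899 at 10 reads and 185 at 200. Under the other scalings, prior counts, FPKM and locus classes the counts of genes stayed between 444 and 544 higher and between 259 and 387 lower. All 516 higher genes kept their call with the total count, DESeq2 1.42.0 or upper-quartile factors, and 349, 364 and 350 of the 374 lower genes did. Of 169 named genes 0 changed sign; calls were lost in 55 of the gene-by-setting combinations, 23 of them on centring by window and 14 with FPKM. List medians moved by more than the members' counting error in 15 combinations, 9 of them on centring. The ends of the window ranking kept their sign with 5 and 20 Mb windows.

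No paired analysis was run, and each group holds 1 library. A model of line and treatment over the 4 libraries, which would take their interaction as error, was not run. Every value compares libraries of 2 lines, and the knockout and any other difference between the lines cannot be told apart. Genes under 200 reads have wide intervals.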

Other observations

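Some measured groups that the text has not yet described differed by their medians more than by single genes. Lysosome and autophagy genes had a median log2 ratio of 0.30 with 0 of 29 called, and 0.07 with miR-34a. MicroRNA processing and silencing genes had a median of -0.29 with 0 of 18 called, which became -0.08 when ratios were centred on genome windows. Enzymes of aldehyde and retinoid metabolism had a median of 0.75 over 11 genes, with the retinoic acid binding protein gene CRABP2 and CYP1A1 higher, and a median of 0.13 with miR-34a. Cholesterol synthesis genes had a median of -0.28 with TM7SF2 higher of 23. C2H2 zinc finger genes had 7 higher and 4 lower of 489, below the 3.79% and 2.75% over all measured genes. Among them ZNF711 was at 2.79 without treatment and 3.62 with miR-34a, and ZNF117 at 3.03 and -0.26. BCL2, the anti-apoptotic gene, was higher in both pairs, at 1.29 and 1.58.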
